A study of Mus musculus with 4 samples.

Results

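The genes of the proteasome were compared between Il10-EGFP+ and Il10-EGFP- CD4+ T cells that had both received a recent T cell receptor signal. They were taken from the deposited table of transformed values by symbol, as every symbol made of Psma to Psmg followed by a number, together with Pomp. This gave 50 of the 9546 genes of that table, and all 50 passed the count minimum used for testing. Of the 50, 47 encode subunits, activators, an inhibitor or assembly chaperones of the proteasome. Psmc3ip (a recombination factor) and Psme3ip1 carry a proteasome symbol but encode proteins that bind the named gene products, and Psme2b is a near copy of Psme2. Among the other symbols of the same form, Psma8, the testis core subunit, had 1, 0, 0 and 0 counts and Psmb11, the thymus subunit, had 0 counts in every library, so that neither could be tested.

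Both populations came from spleens of Tg4 Nr4a3-Tocky Il10-EGFP mice. Their T cells bear a transgenic receptor that recognises a myelin basic protein peptide (Tg4). They also carry a fluorescent Timer protein under the control of Nr4a3, which T cell receptor signals switch on (Nr4a3-Tocky), and EGFP as a reporter of Il10. All mice received [4Y]-MBP, a form of that peptide, under the skin at 4 mg/kg, and CD4+ Timer+ cells were sorted by EGFP after 24 h. The controls are therefore equally transgenic, immunised and Timer+ cells, and no unimmunised group was analysed here. There were 2 libraries of Il10-EGFP- cells (replicates 1 and 2) and 2 of Il10-EGFP+ cells (replicates 1 and 2), made by 3′ end sequencing, in which each transcript is counted near its end, whatever its length. The labels do not give the age of the mice, and a further replicate pair, removed by the authors as an outlier, was not analysed here.

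The proteasome is the protease that degrades proteins tagged with ubiquitin. Its core particle is a barrel of alpha subunits, which gate the entrance, and beta subunits, of which Psmb5, Psmb6 and Psmb7 cut peptide bonds. A regulatory particle caps the barrel: its ATPases (Psmc genes) unfold the substrate and its non-ATPase subunits (most Psmd genes) bind and remove ubiquitin. In cells exposed to interferon-gamma, and in lymphoid cells at rest, Psmb8, Psmb9 and Psmb10 replace the catalytic subunits to form the immunoproteasome, and Psme1 and Psme2 form the PA28 activator. In T cells the proteasome also degrades the inhibitor of NF-kappaB after receptor signalling. The study asked how interferon-gamma bears on the early Il10-expressing cells, which makes the interferon-inducible subunits a group of interest here.

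The libraries held 644679 to 730330 counts, of which 99.3% to 99.4% fell on tested genes. Il10 itself, the gene of the sorted reporter, was at 0 counts in both Il10-EGFP- libraries, and at 29 and 41 in the Il10-EGFP+ pair. Nothing in the labels says more of the replicates than that they are separate samples, while the study's methods speak of biological replicates. Each population thus has 2 samples. Of 9608 genes tested by edgeR (quasi-likelihood, Benjamini-Hochberg), 393 passed an adjusted p of 0.05, 167 lower and 226 higher in Il10-EGFP+ cells. That test draws the spread of each gene towards a trend over all genes, with a median of 52.2 prior degrees of freedom. Its p-values and intervals therefore rest mostly on spread shared across genes, not on the 2 samples of a population alone. Marker genes of other cells moved with the sort. The summed level of 10 B cell genes was 134 and 217 counts per 1000000 counts of the library (CPM) for Il10-EGFP- against 565 and 608 CPM for Il10-EGFP+, with 5 of the 8 tested members called higher, although Cd79a, a defining B cell gene, had 2, 0, 0 and 0 counts. The 10 myeloid genes summed to 153 and 189 against 476 and 254 CPM, with 2 of 8 tested genes called higher and Adgre1 and Cd14 at 0 in every library, and the 8 CD8 or NK cell genes to 50.7 and 87.4 against 90.0 and 106 CPM, with 1 of 5 called higher and Ncr1 at 0. Within that last list Gzma (9, 18, 31 and 31 counts) and Nkg7 (2, 9, 13 and 22) made up the rise, while Cd8a (4, 10, 3 and 3) and Cd8b1 (18, 17, 7 and 13) were lower in both Il10-EGFP+ libraries, neither past the test. The 8 CD4 T cell genes summed to 1673 and 1619 against 2128 and 2134 CPM, so that the labelled cell type was borne out in all 4 libraries. The part of other cells in the proteasome values was not tested.

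Proteasome transcripts differed little between the populations. Of the 50 genes, 1 fell in Il10-EGFP+ cells and 0 rose (adjusted p below 0.05, edgeR's quasi-likelihood test), which is 2% of the members beside 4.09% of all genes tested in either direction, 1.74% called lower and 2.35% called higher. At an unadjusted p below 0.05 there were 5 members, all with lower values in Il10-EGFP+ cells, or 10% beside 15.5% of all genes in either direction and 7.49% with lower values. DESeq2's Wald test called 0 members, beside 1.17% of all genes, with 2 members at an unadjusted p below 0.05. That share counts 4284 genes to which DESeq2 gave no adjusted p, so that they could not be called. The median log2 fold change was -0.08 over the members and 0.00 over all genes tested, and members ran from -1.003 (Psmd9) to 0.41 (Psmc3ip). The 95% interval lay wholly within a 2-fold change for 43 of 50 members and within a 1.5-fold change for 27, so that a change of 2-fold or more was outside the interval for most of these genes. In these bulk libraries fewer cells that express a gene and less of its RNA per cell cannot be told apart.

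The direction of the small differences leaned one way. Log2 fold changes were below 0 for 32 members (64%, beside 50% of all genes) and above 0 for 18. Both Il10-EGFP+ libraries lay below both Il10-EGFP- libraries in 16 members (32%, beside 22.3% of all genes) and above them in 3 (6%, beside 22.3%), and the other 31 overlapped. Among genes that averaged at least 100 counts, 30.6% of all genes and 29.6% of the 27 members at that level lay below without overlap. Above without overlap lay 24.6% of those genes and 11.1% of those members. At that level 70.4% of members had a log2 fold change below 0, beside 53.8% of all genes. The part of count level in the lean was not tested. Overlap was judged on CPM scaled by edgeR's TMM factors, so that raw counts of libraries of unequal depth can overlap where CPM do not. This lean rested partly on the second Il10-EGFP- library: the median member was 0.11 above its own mean over the 4 libraries there, on the log2(CPM + 1) scale, and 0.00, -0.07 and -0.05 from it in the first Il10-EGFP- library and in the first and second Il10-EGFP+ libraries. Without that library 27 members had a log2 fold change below 0, and the median was -0.015. With each library left out in turn, 19 members kept a lower and 3 a higher value in Il10-EGFP+ cells, and 28 changed direction at least once.

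**Figure D1:**
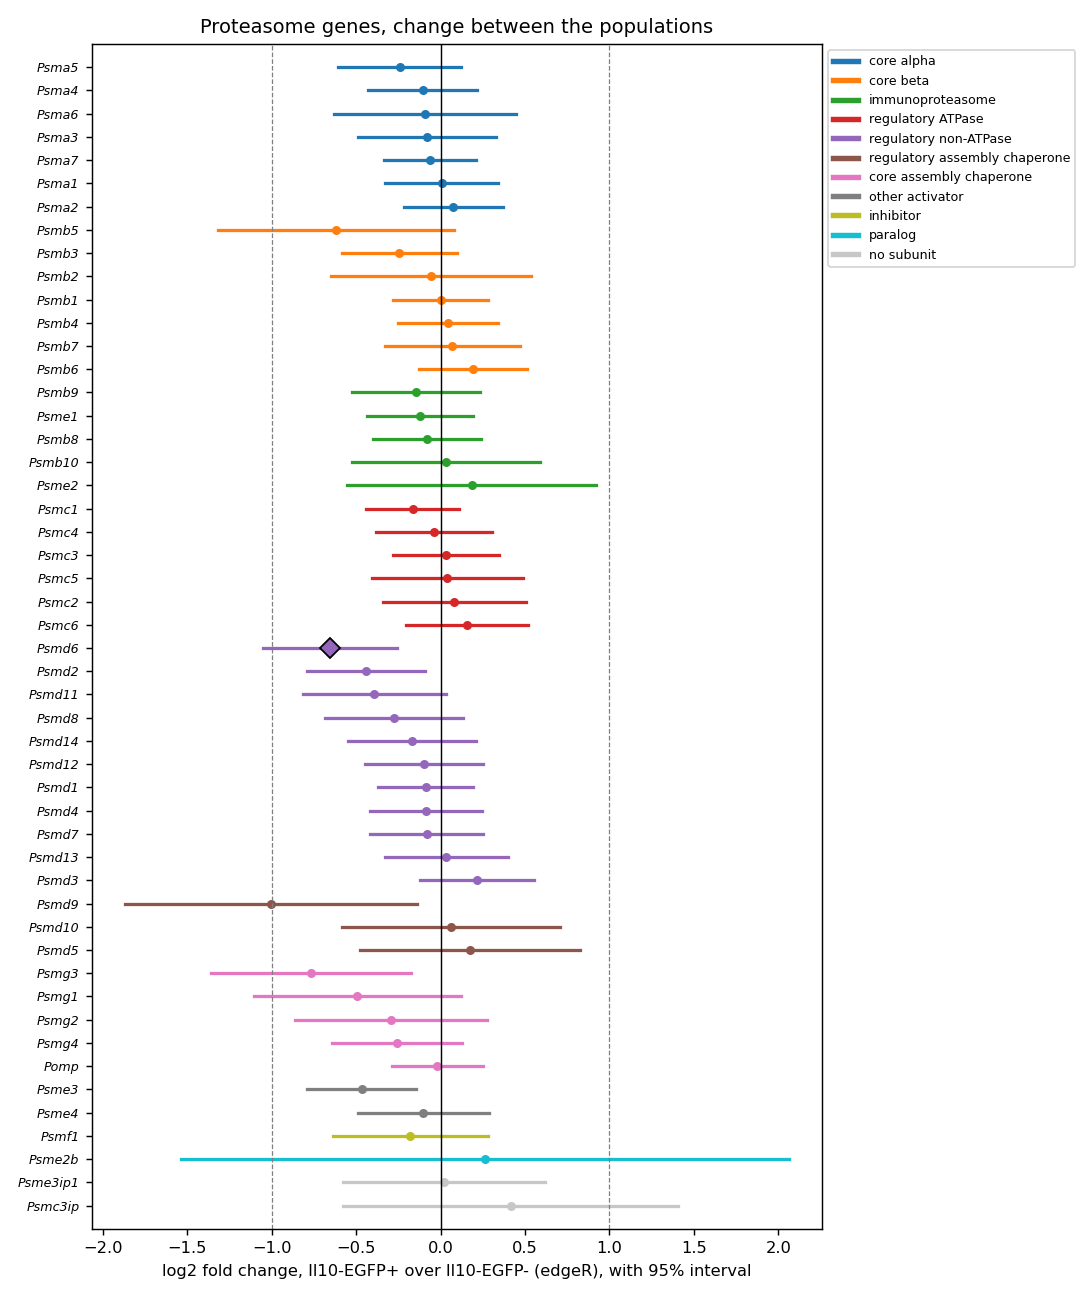
Log2 fold change of each of the 50 genes, Il10-EGFP+ over Il10-EGFP- cells (n = 2 libraries each), as points with their 95% intervals from edgeR, coloured by part of the proteasome. Dashed lines mark a 2-fold change. The diamond is Psmd6, the 1 gene past an adjusted p of 0.05, and 43 intervals lie between the dashed lines.

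**Figure D2:**
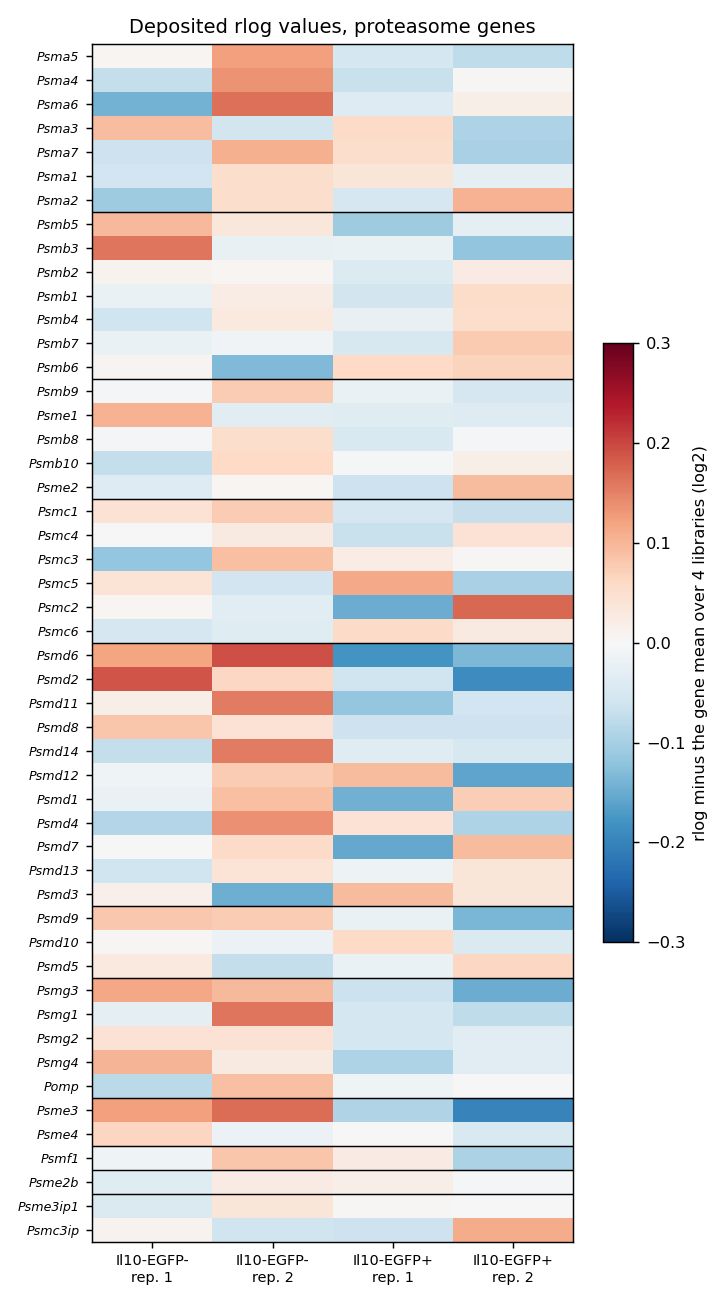
Deposited rlog values of the 50 genes (rows, grouped by part in the order of the plot of intervals) in the 4 libraries (columns), each as the difference from the gene's own mean, in log2 units. Red cells are frequent in the second Il10-EGFP- library, and Psmd6, Psmd2 and Psme3 are red in both Il10-EGFP- and blue in both Il10-EGFP+ libraries.

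The core particle differed little. The 7 alpha subunits, which form the outer rings, had a median log2 fold change of -0.08, with 5 below 0, and ran from -0.24 (Psma5) to 0.08 (Psma2). Psma7, the alpha subunit with the most counts, had 430, 469, 409 and 392 counts in the first and second Il10-EGFP- and the first and second Il10-EGFP+ libraries, in the order kept below. Its log2 fold change was -0.06 (standard error 0.14). Of the 7 constitutive beta subunits, 4 had values below 0, and the median was -0.00. Without overlap 2 lay below and 1 above (28.6% and 14.3%, beside 22.3% each of all genes tested). None of the 14 core genes passed edgeR's test, and 0 of them had an unadjusted p below 0.05.

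The catalytic beta subunits had log2 fold changes on both sides of 0, and none passed the test. Psmb5, which carries the chymotrypsin-like activity, had 37, 29, 16 and 24 counts, or 46.3 ± 5.59 CPM in Il10-EGFP- and 30.0 ± 6.56 CPM in Il10-EGFP+ cells (SD, n = 2 each; CPM are scaled by TMM here and below). The Il10-EGFP+ libraries were the lower pair, at a log2 fold change of -0.62 (standard error 0.35, edgeR adjusted p = 0.415). Of the 50-base runs in the 3′ end of Psmb5, 54.5% are also found in Gm3375, which had 0 counts in every library, so that reads may have been lost at counting. Psmb6, the caspase-like subunit, had 204, 163, 185 and 205 counts, from 257 ± 27.6 to 294 ± 1.85 CPM (SD, n = 2 each). Its Il10-EGFP+ libraries were the higher pair, at a log2 fold change of 0.19 (standard error 0.16, edgeR adjusted p = 0.633). Psmb7, the trypsin-like subunit, had 95, 90, 78 and 103 counts and overlapped between the populations. It shares 69.2% of its end with Nek6, which overlaps it on the opposite strand, and the strand setting of the counting is not given in the sources used here.

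The 1 member called, Psmd6, belongs to the regulatory particle. That is 1 of 50 members (2%), near the 1.74% of all genes called lower. The 6 ATPases, which form the unfolding ring, had a median log2 fold change of 0.04, and 2 were below 0. Psmc1, the ATPase with the most counts, had 389, 375, 305 and 329 counts, the Il10-EGFP+ libraries being the lower pair, at a log2 fold change of -0.17 (standard error 0.14, edgeR adjusted p = 0.634). Psmc6 was the ATPase whose Il10-EGFP+ libraries were the higher pair, with 123, 117, 121 and 128 counts and a log2 fold change of 0.16 (standard error 0.18, edgeR adjusted p = 0.764). Of the 11 non-ATPase subunits, 9 had values below 0 (81.8%, beside 50% of all genes tested), with a median of -0.10. The median over all regulatory subunits, ATPase and non-ATPase, was -0.09 beside -0.06 for the core.

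Psmd6, a scaffold subunit of the lid of the regulatory particle, fell. It had 118 and 122 counts without and 65 and 77 counts with Il10-EGFP, and went from 169 ± 12.6 to 107.0 ± 5.72 CPM (SD, n = 2 each). The gap between the populations was wider than the spread within either. The log2 fold change was -0.66 (standard error 0.20, 95% interval -1.05 to -0.26), with an adjusted p of 0.0436 in edgeR's quasi-likelihood test. The gene (ENSMUSG00000021737) lies at chr14:14112174-14120984 on the minus strand of GRCm38, and its 3′ end shares no run of 50 bases with another gene. The call was near the threshold. Over the alternatives the adjusted p ran from 0.0172 to 0.387, and the call was lost with DESeq2 (0.387), without the count minimum (0.0558) and with each library left out (0.0934 to 0.242), where the log2 fold change stayed between -0.73 and -0.58.

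Psmd2, the largest scaffold subunit together with Psmd1, had 188, 152, 120 and 112 counts and went from 238 ± 23.6 to 176 ± 20.2 CPM (SD, n = 2 each). Both Il10-EGFP+ libraries were below both others, at a log2 fold change of -0.44 (standard error 0.17, edgeR adjusted p = 0.157). Psmd2 and Psme3 are described because of their unadjusted p, after their values were seen. Psmd1 itself had 374, 388, 285 and 385 counts and overlapped between the populations. Psmd3, another lid scaffold, lay the other way, with 170, 131, 160 and 164 counts and a log2 fold change of 0.21 (standard error 0.17, edgeR adjusted p = 0.611). Psmd4, which binds ubiquitin chains, and Psmd14, which cuts them off, had log2 fold changes of -0.09 and -0.17.

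The chaperones that assemble the regulatory ATPase ring are Psmd5, Psmd9 and Psmd10. Psmd9 had 26, 24, 15 and 8 counts and went from 35.2 ± 0.194 to 17.7 ± 8.65 CPM (SD, n = 2 each). The Il10-EGFP+ libraries were the lower pair but differed among themselves more than the Il10-EGFP- libraries did. The log2 fold change of -1.003 (standard error 0.43, 95% interval -1.87 to -0.14) was the farthest from 0 among the members and did not pass the test (edgeR adjusted p = 0.222). With each library left out it ran from -1.59 to -0.56. Psmd5 and Psmd10 overlapped between the populations, at 0.17 and 0.06.

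Among the chaperones that assemble the core particle, all 5 log2 fold changes were below 0, beside 50% of all genes tested. Psmg1 to Psmg4 build the alpha ring and Pomp acts as the nascent barrel matures. Psmg3 had 52, 47, 29 and 25 counts and went from 69.6 ± 1.42 to 41.0 ± 6.99 CPM (SD, n = 2 each), a log2 fold change of -0.77 (standard error 0.30, edgeR adjusted p = 0.146). Psmg1 had 35, 51, 28 and 29 counts, at a log2 fold change of -0.49 (standard error 0.31, edgeR adjusted p = 0.478). In all 4 Psmg genes the Il10-EGFP+ libraries were the lower pair, with Psmg2 at -0.30 and Psmg4 at -0.26. These are 80% of the 5 chaperones, beside 22.3% of all genes tested. Pomp, with 436, 476, 397 and 442 counts, overlapped between the populations at -0.02 (standard error 0.13). The median of the 5 genes was -0.30, 1 of them had an unadjusted p below 0.05 in edgeR's test and none passed after adjustment.

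**Figure D3:**
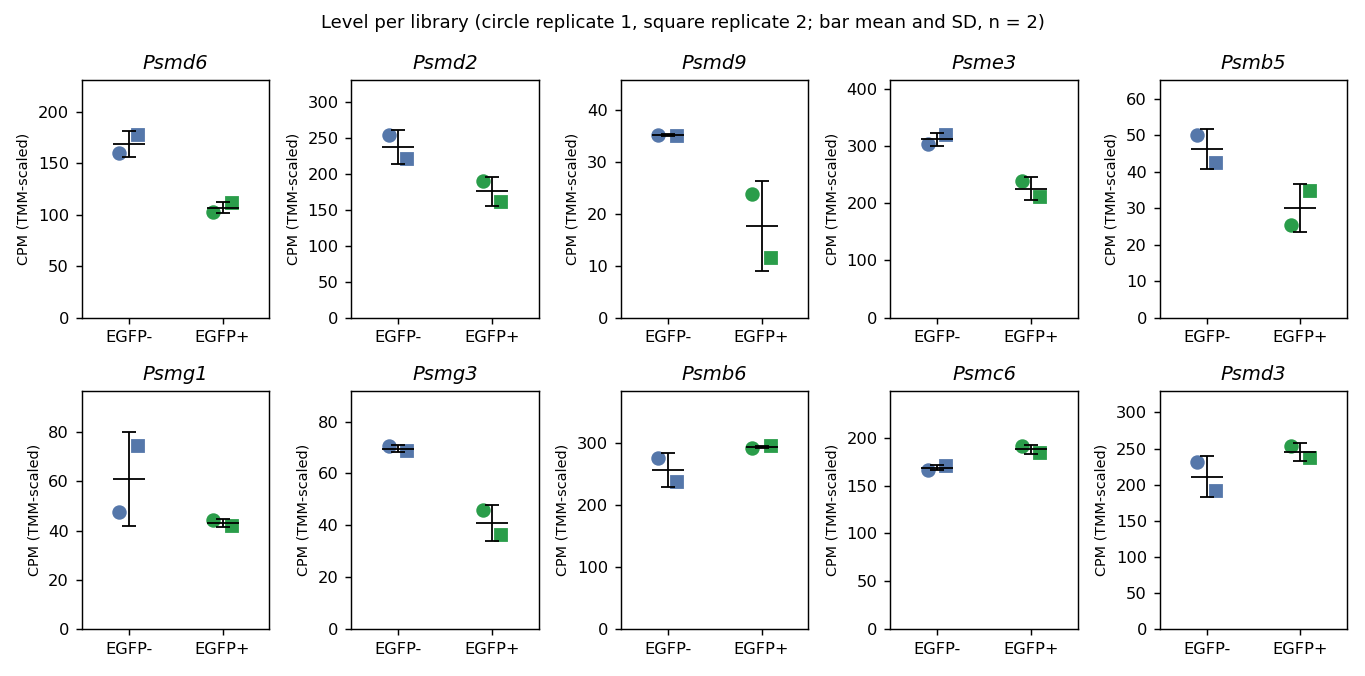
Level of 10 members in each library, in TMM-scaled CPM on axes that start at 0, for Il10-EGFP- (blue) and Il10-EGFP+ (green) cells; circles are replicate 1, squares replicate 2, and bars the mean and SD (n = 2). In the first 7 panels (Psmd6, Psmd2, Psmd9, Psme3, Psmb5, Psmg1, Psmg3) both Il10-EGFP+ points lie below both Il10-EGFP- points, and in the last 3 (Psmb6, Psmc6, Psmd3) they lie above them. Genes were chosen for lack of overlap or, for Psmd2 and Psme3, after their values were seen. The separation therefore follows from the choice, and 31 of all 50 members overlapped.

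None of the immunoproteasome genes passed the test, and their summed share was slightly lower in Il10-EGFP+ cells. The 5 genes took 0.0817% and 0.0827% of the Il10-EGFP- counts against 0.0740% and 0.0777% of the Il10-EGFP+ counts, a ratio of 0.922 beside 0.923 for all 50 members. Psmb8, which takes the place of Psmb5, had 191, 190, 156 and 180 counts, and a log2 fold change of -0.08 (standard error 0.16, 95% interval -0.40 to 0.24). Psmb9, which takes the place of Psmb6, had 111, 116, 93 and 98 counts and a log2 fold change of -0.15 (standard error 0.19, interval -0.53 to 0.23). Its Il10-EGFP+ libraries were the lower pair by a margin within its standard error, and its exons overlap Tap1 on the opposite strand. Psmb10, which takes the place of Psmb7, had 39, 49, 39 and 45 counts and a log2 fold change of 0.03 (standard error 0.28).

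Of the PA28 genes, Psme1 had 234, 189, 172 and 189 counts and a log2 fold change of -0.12 (standard error 0.16), the Il10-EGFP+ libraries being the lower pair. Psme2 had 22, 24, 17 and 32 counts at 0.18 (standard error 0.37). Psme2 shares 66.8% of its end with Psme2b, so that reads of either can go uncounted, and Psme2b had 2, 6, 5 and 4 counts. None of the 5 genes passed edgeR's or DESeq2's test and 0 had an unadjusted p below 0.05 in edgeR's. All 5 intervals lay within a 2-fold change and 3 within 1.5-fold. Psme2 and Psmb10 changed direction with 1 and 2 of the alternatives. B cells and myeloid cells also express the immunoproteasome, and the summed marker levels of both were higher in the Il10-EGFP+ libraries, as given above.

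**Figure D4:**
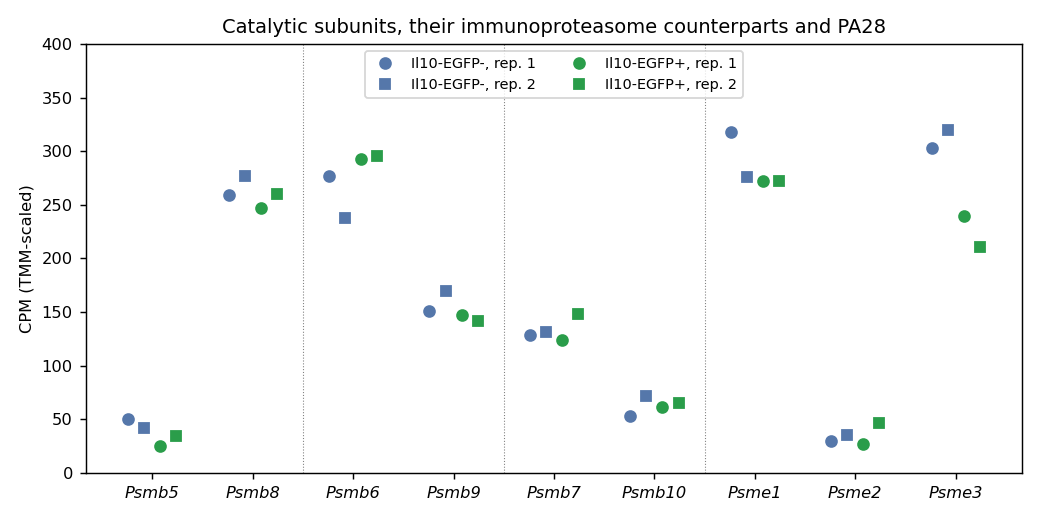
Level in each library (TMM-scaled CPM, axis from 0) of the constitutive catalytic subunits beside the immunoproteasome subunit that replaces each (dotted lines separate the pairs), and of the activators Psme1, Psme2 and Psme3. The points of Psmb8, Psmb10, Psmb7 and Psme2 overlap between the populations, and those of Psme3 are lower in both Il10-EGFP+ libraries.

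Psme3 encodes the nuclear PA28-gamma activator, which is not part of the interferon-inducible set. It had 223, 219, 151 and 146 counts and went from 311 ± 11.9 to 225 ± 20.2 CPM (SD, n = 2 each). The populations did not overlap, and the log2 fold change was -0.47 (standard error 0.16, 95% interval -0.79 to -0.15). Its edgeR adjusted p of 0.0877 missed the threshold, and ran from 0.0329 to 0.443 over the alternatives. The 0.0329 came from the fit with the replicate number as a block, the 1 alternative that passed the gene. Psme4 (PA200), a further activator, stood at a log2 fold change of -0.10, and Psmf1 (PI31), an inhibitor of the core, one of -0.18, both with overlap.

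Summed over all 50 genes, the proteasome took 0.977% and 1.04% of the Il10-EGFP- counts, against 0.918% and 0.941% of the Il10-EGFP+ counts, means of 1.01 ± 0.0419% and 0.929 ± 0.0162% (SD, n = 2 each). The difference of -0.0777 percentage points was seen in both Il10-EGFP+ libraries, at a ratio of 0.923. The exact two-sided permutation test gave p = 0.333, the smallest that 2 against 2 libraries allow. The Wilson 95% interval of the first Il10-EGFP- library (0.955% to 1.00%) overlapped that of the second Il10-EGFP+ library (0.918% to 0.964%). The other pairs across the populations did not overlap. The second Il10-EGFP- library ran from 1.01% to 1.06% and the first Il10-EGFP+ library from 0.895% to 0.941%. Intervals of this kind cover counting error only.

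**Figure D5:**
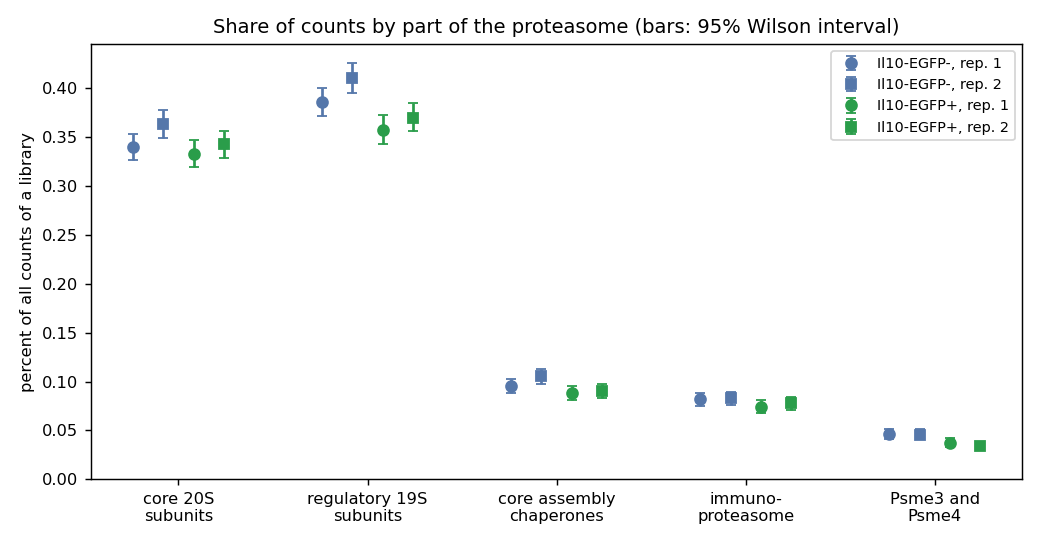
Percent of all counts of a library that fell on each part of the proteasome, for Il10-EGFP- (blue) and Il10-EGFP+ (green) libraries, with 95% Wilson intervals (counting error only); circles are replicate 1 and squares replicate 2. Regulatory subunits took 0.385% and 0.410% in Il10-EGFP- against 0.358% and 0.370% in Il10-EGFP+ libraries, while the core share of the first Il10-EGFP- library, 0.340%, lies between the 0.333% and 0.342% of the Il10-EGFP+ libraries.

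Ratios between parts, which do not depend on the library scaling, were formed after the values were seen and are given as descriptions. Immunoproteasome to constitutive catalytic counts (Psmb8, Psmb9 and Psmb10 over Psmb5, Psmb6 and Psmb7) stood at 1.01 and 1.26 without Il10-EGFP, against 1.03 and 0.973 with it, so that the populations overlapped. Its pairwise ratios lay on both sides: Psmb8 to Psmb5 was 5.16 and 6.55 against 9.75 and 7.50, and Psmb9 to Psmb6 was 0.544 and 0.712 against 0.503 and 0.478, neither with overlap, while Psmb10 to Psmb7 was 0.411 and 0.544 against 0.500 and 0.437. Most of the first shift was in Psmb5, the gene of few counts and shared sequence, and the exact 95% counting intervals overlapped between the first libraries of each population (3.62 to 7.55 and 5.82 to 17.5). The PA28 counts (Psme1 and Psme2) to Psme3 counts stood at 1.15 and 0.973 against 1.25 and 1.51. Regulatory to core counts stood at 1.13 and 1.13 against 1.07 and 1.08. The exact 95% counting interval of the first Il10-EGFP- library, 1.07 to 1.20, overlapped that of the first Il10-EGFP+ library, 1.01 to 1.14. The ratio of Psmg1 to Psmg4 counts to core counts was 0.104 and 0.0991 against 0.0793 and 0.0784, with exact intervals of 0.0911 to 0.118 in the first Il10-EGFP- and 0.0674 to 0.0927 in the first Il10-EGFP+ library, which overlapped at their ends.

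The promoters of 3 members are shown because they bear on the genes above. They are Psmd6, the 1 member called, Psmd9, the gene with the widest log2 fold change, and Psmb8, the interferon-inducible counterpart of Psmb5. Each runs from 250 bases before to 50 after the RefSeq transcript start (GRCm38.p6), in the direction of transcription. Capitals mark matches, on either strand, to the letters of an antioxidant response element (TGACNNNGC, the site of the factor Nfe2l1 that restores proteasome genes under proteasome stress), an interferon-stimulated response element (GAAANNGAA) or a gamma-activated site (TTCNNNGAA, an element of interferon-gamma response genes). The Psmd6 window (chr14:14120896-14121195, minus strand) held no match, the Psmd9 window (chr5:123227940-123228239, plus strand) 2, and the Psmb8 window (chr17:34197945-34198244, plus strand) 1.
Psmd6: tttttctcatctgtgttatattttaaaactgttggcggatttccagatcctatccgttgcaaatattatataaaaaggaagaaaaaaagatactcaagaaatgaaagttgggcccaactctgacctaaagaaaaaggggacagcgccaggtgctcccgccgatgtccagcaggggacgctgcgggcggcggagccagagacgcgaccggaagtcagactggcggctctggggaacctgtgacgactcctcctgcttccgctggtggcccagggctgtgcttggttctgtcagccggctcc
Psmd9: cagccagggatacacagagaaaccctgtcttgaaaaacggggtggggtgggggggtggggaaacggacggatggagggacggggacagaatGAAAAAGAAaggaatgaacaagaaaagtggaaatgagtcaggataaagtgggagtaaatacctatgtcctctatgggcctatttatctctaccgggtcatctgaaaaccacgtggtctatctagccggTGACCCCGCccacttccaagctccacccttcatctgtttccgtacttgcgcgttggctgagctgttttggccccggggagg
Psmb8: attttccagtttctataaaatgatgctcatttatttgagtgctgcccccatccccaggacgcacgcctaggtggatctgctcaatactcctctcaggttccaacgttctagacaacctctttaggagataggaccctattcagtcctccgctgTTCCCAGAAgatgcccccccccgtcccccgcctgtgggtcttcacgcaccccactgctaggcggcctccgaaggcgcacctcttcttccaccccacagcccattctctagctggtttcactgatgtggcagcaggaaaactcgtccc

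Of the 50 members, 43 had an entry in the RefSeq promoter table, with 47 promoters. The antioxidant letters were in 6 of these (12.8%, beside 12.4% of all 32851 promoters), the interferon-stimulated letters in 8 (17.0%, beside 8.56%) and the gamma-activated letters in 3 (6.38%, beside 8.30%). Among the genes described above, Psmd9 held the first and second kind, Psme1, Pomp, Psmd4 and Psmg4 the second, Psmb5, Psmb6, Psmc6 and Psme4 the first, and Psmb8, Psmd2 and Psmg1 the third. A match of letters is not a bound site, and these counts say nothing of binding in these cells. The members lie on 16 chromosomes, with 10 on chromosome 11.

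Genes that act with the proteasome also differed little. The list of pathway genes (shuttle factors, segregase, deubiquitinases, adaptors, ubiquitin genes and transcriptional regulators) held 27 that were found and tested. In edgeR's test 0 were called, with 1 at an unadjusted p below 0.05, and DESeq2 called 0. Their median log2 fold change was -0.08, and 17 were below 0 (63.0%, beside 50% of all genes tested). The one was Rad23b, which carries ubiquitylated proteins to the proteasome, with 315, 303, 210 and 238 counts, a log2 fold change of -0.36 (standard error 0.15) and an edgeR adjusted p of 0.172. Nfe2l1, the factor that switches on proteasome genes when the protease is blocked, had 24, 8, 15 and 10 counts, which overlapped between the populations. Vcp, the ATPase that pulls substrates from complexes and membranes, stood at -0.06 on the log2 scale (standard error 0.14).

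Among 8 genes that work with the immunoproteasome in the interferon response and antigen presentation, 1 changed (12.5%, beside 4.09% of all genes). Erap1, the aminopeptidase that trims proteasome products in the endoplasmic reticulum, had 65, 68, 25 and 33 counts. It fell, with no overlap, at a log2 fold change of -1.09 (standard error 0.27, edgeR adjusted p = 0.00974). Over the alternatives its adjusted p ran from 0.00264 to 0.199, and the call was lost with DESeq2 (0.199), when Il10-EGFP- replicate 2 (0.0798) or Il10-EGFP+ replicate 1 (0.0896) was left out. Tap1, a subunit of the peptide transporter and the neighbour of Psmb9, had 134, 109, 125 and 104 counts and a log2 fold change of 0.02 (standard error 0.19). Irf1, an interferon-induced factor that acts on immunoproteasome promoters, had a log2 fold change of 0.11, and Nlrc5, which drives class I genes, one of -0.04, with adjusted p above the threshold for both.

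Some counts are uncertain because of shared sequence. Of the 50 members, 28 had no run of 50 bases at the 3′ end in common with another gene and 13 shared more than 20% of them. Exons of 16 members overlap those of another gene. Psmd6, Psme3, Psmg1, Psmg3, Psmc6 and Psmd3 shared none, while Psmd2 shared 23.5% of its end. Psmc3ip, the member with the highest log2 fold change, had 15, 9, 8 and 22 counts and shares 74.5% of its end with Mlx on the opposite strand.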

How the data were processed

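Transcripts were counted in 2 libraries of each sorted population. The authors deposited raw read counts by Ensembl identifier, from BlueBee's QuantSeq FWD pipeline with STAR 2.5.2a (submitters' processing notes) and HTSeq-count 0.6.0 on GRCm38, and log2-scale rlog values made from them with DESeq2. Molecular identifiers were used against amplification bias, per the study's methods. Whether the deposited counts are of reads or of molecules, the strand option and the annotation release are not given in the sources used here. The labels and the study's methods name different RNA extraction kits.

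The 9608 of 47643 genes that summed to at least 10 counts were tested with edgeR 4.0.16 (quasi-likelihood, TMM) in R 4.3.3, with Benjamini-Hochberg adjustment over all of them and a threshold of 0.05. DESeq2 1.42.0 and limma 3.58.1 were alternatives, and the edgeR, DESeq2 and voom fits were tested on simulated data. The deposited rlog values served for a heatmap and a limma alternative. Symbols came from gene name tables (1 member through an older name), and coordinates and transcript ends from GENCODE M21 on GRCm38. Named genes are members past the threshold, the 5 largest changes in each direction without overlap between the populations and with a mean of at least 10 counts (3 exist in the higher direction), immunoproteasome genes, Psmb7, Pomp and Psmc3ip; others illustrate a part. The members and lists were chosen with earlier results of these data known. Protein sequences were not used here. The values of 1 gene of the interferon list are not reported here.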

Additional observations from a re-analysis of the deposited data

How the results depend on the processing

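At an adjusted p below 0.01, edgeR called 177 genes of all tested, DESeq2 called 112 at 0.05 (it gave no adjusted p for 4284 genes), limma on the rlog values called 197, and edgeR with a library left out called 201 (without Il10-EGFP+ replicate 2) to 264 (without Il10-EGFP- replicate 2), beside 393. Proteasome genes called were 0 at an adjusted p below 0.01, 0 with DESeq2, 0 without the count minimum and 0 to 0 with a library left out, where 2 (DESeq2), 5 (no minimum) and 1 to 5 (a library left out) members had an unadjusted p below 0.05. Their median log2 fold change ran from -0.13 to -0.015 with a library left out, and was -0.015 without Il10-EGFP- replicate 2. With the replicate number as a block, 2 proteasome genes were called (Psmd6 and Psme3) and 560 of all genes, but samples with the same number did not deviate together (correlation 0.04 over 4965 genes), and no label ties a number to 1 mouse, so the numbers were not taken as pairs. The related pathway genes had 0 calls in every fit, and the difference in the proteasome share of counts stayed below 0 (-0.11 to -0.05 percentage points with a library left out). The cause of these shifts was not tested, and the leave-one-out fits also have fewer libraries.

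With 2 libraries a population, genes of few counts, such as Psmd9 or Psme2, had intervals too wide to tell a small change from none.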
